A study of Mus musculus with 2 samples.

Results

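Dendritic cells of 2 kinds were examined among the CD45+ cells of Lewis lung carcinoma (LLC) tumors: cross-presenting cells, which carry Xcr1 or Clec9a transcripts, and mature cells, which carry Ccr7 and Fscn1 transcripts. They were chosen by the measured transcripts of each cell, in both libraries by 1 rule. A cell had at most 10% of its UMIs (unique molecular identifiers, each counting 1 captured transcript) from mitochondrial genes, under 10 UMIs of C1qa, C1qb and C1qc together, and at most 1 UMI of Cd3d, Cd3e and Cd3g together. Such a cell entered the cross-presenting group with at least 2 UMIs of Xcr1 and Clec9a together, and the mature group with at least 1 UMI of Ccr7 and at least 2 of Fscn1. The rule took 69 of the 5167 deposited cells, 33 of them cross-presenting and 36 mature, and 0 cells met both limits. Values of these genes, and every difference between the 2 groups of cells, are therefore given as a description with no test.

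The cells came from C57/BL6 mice with subcutaneous LLC tumors, a mouse lung carcinoma line, implanted at 8 weeks of age and taken 14 days later, at 10 weeks. Both groups of mice carried loxP-flanked miR-21 (miR-21 flox/flox), and the second also carried LysMCre (miR-21 flox/flox; LysMCre). The LysMCre allele places Cre in the Lyz2 locus, which drives deletion mainly in macrophages, monocytes and granulocytes, and its action in dendritic cells was not measured here. Sorted CD45+ cells of 3 mice were pooled for each genotype and loaded as 1 droplet library, so there was 1 sample per genotype, no replicate and no p-value. All intervals below are exact 95% intervals that cover counting error only. The groups follow the sample titles, wt and cko. Their source descriptions name the genotypes the other way round, and a protocol field names a macrophage gate in place of CD45 alone, so each is called by its label here, as the library labelled wt or labelled cko.

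Dendritic cells take up material in tissues and present it to T cells. The cross-presenting type depends on the transcription factors Irf8 and Batf3, responds to the chemokine Xcl1 through the receptor Xcr1, senses dying cells through Clec9a, and loads exogenous antigen onto MHC class I for CD8+ T cells. On maturation, dendritic cells of either conventional type stop taking up antigen and turn on Ccr7, the receptor that guides them to lymph nodes, Fscn1, an actin-bundling protein, and costimulatory and checkpoint ligands. In the annotation of mouse build GRCm38, Xcr1 (ENSMUSG00000060509) spans chr9:123852315-123862029 on the minus strand and Clec9a (ENSMUSG00000046080) spans chr6:129408862-129424763 on the plus strand. Ccr7 (ENSMUSG00000037944) spans chr11:99144196-99155077 on the minus strand and Fscn1 (ENSMUSG00000029581) spans chr5:142960343-142973185 on the plus strand, exons and introns included.

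In all, 2449 cells with 24492486 UMIs were deposited for wt and 2718 cells with 27163485 UMIs for cko, at medians of 8359 and 8247 UMIs per cell. No cell had fewer than 3184 and 3187 UMIs respectively. The limit on mitochondrial UMIs left out 4 and 14 cells and kept 2445 and 2704. The libraries shared 5 cell barcodes, 0 of them in the 69 cells. Levels are given as CPM, the summed UMIs of a gene per 1000000 summed UMIs of the cells in that group and library.

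Neither group's share of all cells could be told apart between the libraries at this number of cells. Cross-presenting cells numbered 18 of 2445 cells in the library labelled wt, or 0.736% (0.437 to 1.16), and 15 of 2704 in the library labelled cko, or 0.555% (0.311 to 0.913). The ratio of the shares, cko over wt, was 0.754 with an interval of 0.354 to 1.58. Mature cells numbered 11, or 0.450% (0.225 to 0.804), in the library labelled wt and 25, or 0.925% (0.599 to 1.36), in the library labelled cko. Their ratio was 2.06, and its interval of 0.975 to 4.63 included 1. There were 0.611 mature cells per cross-presenting cell in the library labelled wt and 1.67 in the library labelled cko, and the ratio of these values was 2.73 (0.915 to 8.24), also not separated from 1.

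**Figure D1:**
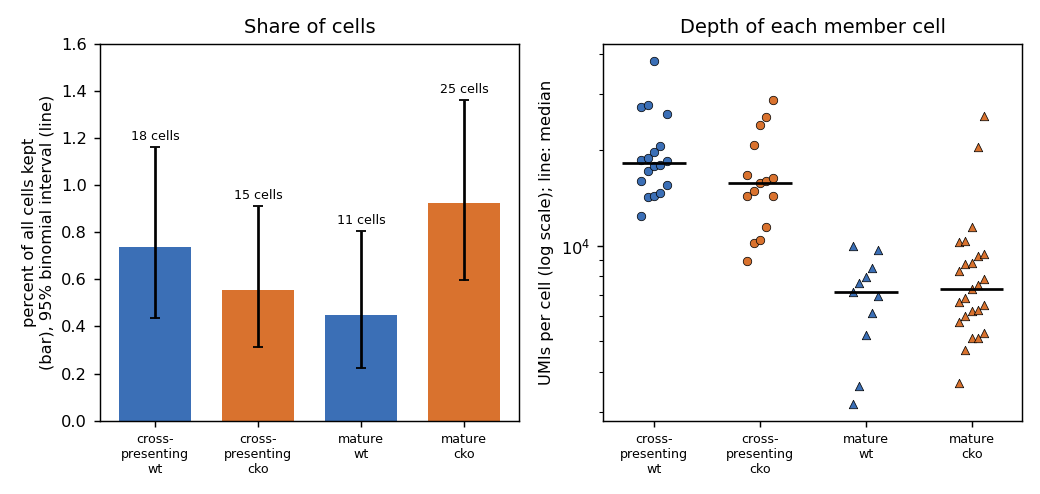
Left, percent of all cells kept in each library that fell in the cross-presenting and mature groups, with bars for the percent and lines for the exact 95% binomial interval. Right, UMIs per cell on a log axis, 1 point per cell with a line at the median. The intervals of the 2 libraries overlap in both groups, and the cross-presenting cells sit at medians of 18241 and 15764 UMIs against 7166 and 7321 in the mature cells.

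The 2 groups differed in depth. Cross-presenting cells had a median of 18241 UMIs (12425 to 38083) in the library labelled wt and 15764 (8962 to 28704) in the library labelled cko. Mature cells had medians of 7166 (3184 to 9940) and 7321 (3683 to 25599), and 2 and 1 of them had under 4000 UMIs. CD209a and MGL2 dendritic cells, 29 and 25 cells with at least 3 UMIs of Cd209a and Mgl2 together, had medians of 9768 and 9311. Because the rule counts UMIs, it takes deep cells more easily: with every cell thinned at random to 3000 UMIs it took 5 and 2 cross-presenting cells and 11 and 21 mature cells. The share ratio of cko over wt was then 0.362 for cross-presenting cells, and the ratio of mature per cross-presenting cell was 4.77. The median number of genes per cell was 3611.5 and 3259 in the cross-presenting group and 1837 and 1991 in the mature group.

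A number of cells lay just at the limits. Among the cross-presenting cells, 3 in each library held exactly 2 UMIs of Xcr1 and Clec9a, with a median of 174 and 118 UMIs of the 20 cross-presenting marker genes. A further 14 and 7 cells with exactly 1 UMI of Xcr1 and Clec9a were left out, with medians of 14.5 and 85. Of the mature cells, 0 and 2 held exactly 2 UMIs of Fscn1. Cells with Ccr7 but no Fscn1, 11 and 21, were left out and held medians of 36 and 8 UMIs of the 29 mature marker genes. The C1q limit left out 4 and 9 cells that otherwise met the cross-presenting limit and 0 and 1 that otherwise met the mature limit.

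Markers that the rule had not used were high in the group they name. Their lists were chosen with earlier results of these data known, so they are no independent check of the labels. The summed list of 20 cross-presenting markers other than Xcr1 and Clec9a (among them Irf8, Batf3, Naaa, Itgae and Wdfy4) reached a median of 105 UMIs per 10000 (11.3 to 137) in cross-presenting cells labelled wt and 101 (66.8 to 149) in those labelled cko. Mature cells had medians of 14.4 and 11.4, CD209a and MGL2 dendritic cells 25.9 and 21.4, and C1q macrophages 18.1 and 19.1. C1q macrophages here were 834 and 1016 cells with at least 10 UMIs of C1qa, C1qb and C1qc together. The list of 29 mature markers other than Ccr7 and Fscn1 (among them Ccl22, Ccl5, Relb, Socs2 and Il4i1) had medians of 363 (187 to 768) and 224 (17.2 to 624) in mature cells. In the cross-presenting cells its medians were 5.86 and 5.89, close to the 7.28 and 6.84 of C1q macrophages.

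**Figure D2:**
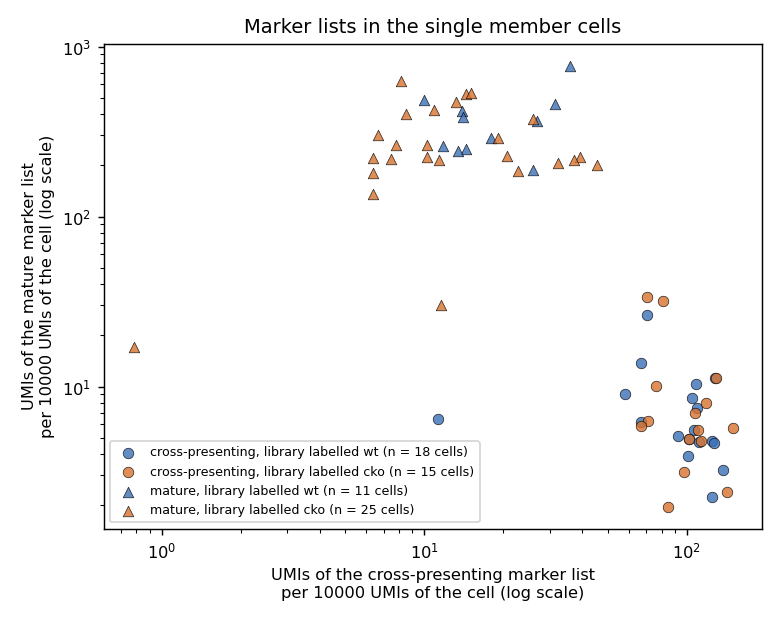
Each point is 1 of the 69 cells, with UMIs per 10000 of the 20 cross-presenting markers on one log axis and of the 29 mature markers on the other, by group and library. The groups form 2 clouds, with 3 cells nearer to the low end of their own list.

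Of the 69 cells, 3 stood apart from their labels, each with under 50 UMIs of its own marker list, against at least 86 in every other cross-presenting cell and at least 107 in every other mature cell. A cross-presenting cell labelled wt with 12425 UMIs held 14 UMIs of the list, of which Irf8 and Naaa gave 1 each. A mature cell labelled cko with 10340 UMIs held 31 UMIs of its list and 98 of Lyz2, a lysozyme gene of macrophages and neutrophils. The other mature cell, with 25599 UMIs, held 44 UMIs of its list and 10 of the keratin Krt8. For some of the named genes that these cells move, values are given below with and without them.

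Most lists of markers of other cell types had low sums in both groups, apart from a gene of the Langerhans list in some mature cells. The 14 macrophage and monocyte markers summed to 1779 and 2008 CPM in cross-presenting cells and 763 and 1148 in mature cells, against 34281 and 27638 in C1q macrophages. The 12 T and NK cell markers summed to between 23.4 and 36.3 CPM in the 4 sets of cells, against 11804 and 10349 in T cells. The summed B cell markers stayed at or below 5.63 CPM, plasmacytoid markers at or below 79.7 and neutrophil markers at or below 426. Tumor epithelial markers were at 19.7 and 44.3 CPM in cross-presenting cells and at 0 and 211 in mature cells, where 1 of the 3 cells above, that with 25599 UMIs, held 41 of the 45 UMIs labelled cko. Single cells also held 124 of the 245 macrophage and monocyte UMIs of mature cells labelled cko and 292 of the 498 of cross-presenting cells labelled cko. The 10 CD209a and MGL2 dendritic cell markers summed to 284 and 351 CPM in cross-presenting and 421 and 337 in mature cells, against 2703 and 2870 in the cells they name and 464 and 532 in T cells, and Cd209a itself was at 0 in all 69 cells. The 4 Langerhans cell markers summed to 434 and 103 CPM in mature cells, against 4.01 to 18.5 in every other group of cells. All of it in mature cells was Mfge8, from 2 of 11 and 7 of 25 cells. Cd207, another of the 4 markers, was at 0 in mature cells. The part of these other markers in the results below was not tested.

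The rule genes themselves varied from cell to cell. Xcr1 had 104 UMIs in the 18 cross-presenting cells labelled wt (median 5, highest 14) and 69 in the 15 labelled cko (median 3, highest 15), which gave 293 and 278 CPM. Clec9a had 33 and 11 UMIs, or 92.9 and 44.3 CPM, and both genes were at 0 in all 36 mature cells. Ccr7 had 288 UMIs in the mature cells labelled wt (median 25, highest 53) and 876 in those labelled cko (median 28, highest 120), or 3787 and 4105 CPM. Fscn1 had 270 and 748 UMIs (medians 24 and 22, highest 56 and 108), or 3550 and 3505 CPM, and 0 UMIs in every cross-presenting cell. Both mature genes thus stood at close levels in the 2 libraries, and Xcr1 did too.

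Across the transcriptome, the mature and cross-presenting cells were far apart. Of 4572 genes with at least 20 UMIs, 379 (8.29%) were at least 2-fold higher in mature cells in each library with both intervals above 1-fold, and 308 (6.74%) were higher in cross-presenting cells by the same measure. These are called past the limit below. The median log2 ratio of all tested genes, mature over cross-presenting, was −0.25 in the library labelled wt and −0.18 in the library labelled cko. Every list below can be read against these medians and the shares of 8.29% and 6.74%. As the groups were cut from the same cells, the counts describe the groups and test nothing. The 2 libraries are shown side by side as the only repeat of this contrast.

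The genes highest in mature cells over cross-presenting cells, ranked by the lower bound in the weaker library, were Fscn1, Ccl5, Ccr7, Il4i1, Cd63, Socs2, Samsn1, Rgs1, Cacnb3 and Tmem123, of which the rule itself fixed Fscn1 and Ccr7. Ccl5, a chemokine that draws T cells, stood at 11611 and 6247 CPM in mature cells against 8.44 and 8.06 in cross-presenting cells, with log2 ratios of 10.43 and 9.60. Il4i1, a secreted amino acid oxidase that restrains T cells, stood at 934 and 890 CPM against 0 and 4.03. Socs2, an inhibitor of cytokine signalling, was at 763 and 487 CPM against 0 in both libraries. Cd63, a tetraspanin of late endosomes, had log2 ratios of 6.64 and 6.60. Samsn1, an adaptor of lymphoid and myeloid cells, had ratios of 7.21 and 6.21.

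The genes highest in cross-presenting cells were Naaa, Plbd1, Ckb, Ifi205, H2-DMb1, Plet1, Ppt1, Xcr1, Lgals3 and Wdfy4, of which the rule itself fixed Xcr1. Naaa, a lysosomal amidase, stood at 1844 and 1871 CPM in cross-presenting cells against 13.1 and 32.8 in mature cells, with log2 ratios of mature over cross-presenting of −7.13 and −5.83. Wdfy4, which cross-presentation of cell-associated antigen requires, was at 281 and 230 CPM against 0 and 4.69. Plet1 was at 391 and 637 CPM against 0 in both libraries. H2-DMb1, a chaperone that loads peptide onto MHC class II, had log2 ratios of −4.23 and −4.63.

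Of all genes tested, 8.29% were past the limit on the mature side and 6.74% on the cross-presenting side. Of 9 tested uptake and pattern receptor genes, 1, Ly75, was past it on the mature side and 2 on the cross-presenting side. These were Fcgr2b, an inhibitory Fc receptor, and Clec9a, which the rule itself fixed. Tlr3, the endosomal receptor for double-stranded RNA, was at 78.8 and 64.5 CPM in cross-presenting cells and at 0 in mature cells, and the integrin Itgae was at 163 and 92.7 CPM against 0. Ly75, the endocytic receptor DEC-205, went the other way, with 25.3 and 36.3 CPM in cross-presenting cells against 224 and 93.7 in mature cells.

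Transcription factors of the lineage stayed detectable in mature cells. Irf8 was at 1694 and 2246 CPM in cross-presenting cells and still at 1052 and 1012 in mature cells, above the 302 and 620 of CD209a and MGL2 dendritic cells and the 287 and 290 of C1q macrophages. Batf3 was at 231 and 206 CPM in cross-presenting cells and at 302 and 159 in mature cells. Flt3, the growth factor receptor of the dendritic lineage, stood at 234 and 314 CPM in cross-presenting and 355 and 314 in mature cells, against 0.547 and 1.21 in C1q macrophages. Of 15 tested lineage factors, Nfil3 and Etv3 were past the limit on the mature side and Mycl, a factor of cross-presenting cells, on the cross-presenting side. The shares of all genes tested were 8.29% and 6.74%, and the medians of this list were 0.39 and 0.02. Mycl stood at 90.1 and 96.8 CPM against 13.1 and 9.37. All 12 cross-presenting markers past the limit among 19 tested were higher in cross-presenting cells, and all 25 tested mature markers were past the limit on the mature side.

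MHC class II transcripts were lower in mature cells as a group. Of 12 tested genes, 9 were past the limit on the cross-presenting side and 1, H2-Eb2, on the mature side, with list medians of −1.91 and −1.58. H2-Ab1, the beta chain of I-A, stood at 15548 and 14643 CPM in cross-presenting cells against 960 and 2704 in mature cells, and at 19594 and 19493 in CD209a and MGL2 dendritic cells. Cd74, the invariant chain that escorts class II molecules, stood at 27505 and 27128 CPM against 6075 and 8754. Ciita, the class II transactivator, was at 87.3 and 88.7 CPM against 0 and 14.1. The level of H2-Ab1 in mature cells was also below the 9538 and 9016 CPM of C1q macrophages.

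The main chains of MHC class I stood the other way. B2m, the light chain, stood at 14044 and 9602 CPM in mature cells against 3299 and 3270 in cross-presenting cells, 5239 and 5246 in CD209a and MGL2 dendritic cells and 7260 and 6434 in C1q macrophages. H2-K1 stood at 3721 and 2498 CPM in mature cells against 813 and 653 in cross-presenting cells, and H2-D1 at 8981 and 6116 against 2696 and 2330. Of 17 tested genes of class I and cross-presentation, 4 were past the limit on the mature side (B2m, H2-K1, H2-D1 and the proteasome activator Psme2) and 3 on the cross-presenting side (Calr, Pdia3 and Wdfy4), with medians of 0.30 and 0.20. The shares of all genes tested on these sides were 8.29% and 6.74%. Tap1, the peptide transporter, was at 408 and 441 CPM in mature cells against 394 and 375 in cross-presenting cells.

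Costimulatory and checkpoint ligands were mostly higher in mature cells. Of 13 tested, 7 were past the limit on the mature side, namely Cd40, Cd80, Cd83, Cd274, Pdcd1lg2, Cd200 and Pvr, and 3 on the cross-presenting side, namely Cd48, Vsir and Havcr2. Cd83 stood at 1210 and 1106 CPM in mature cells against 76.0 and 177 in cross-presenting cells. Cd200, a ligand that dampens myeloid cells, stood at 723 and 342 CPM against 2.81 and 8.06, and Cd274, which encodes PD-L1, at 250 and 183 against 22.5 and 12.1. Cd86 was not past the limit, with 237 and 187 CPM against 175 and 189 and log2 ratios of 0.44 and −0.02.

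Of 10 tested chemokines, 3 were past the limit on the mature side (Ccl5, Ccl22 and Cxcl16) and 0 on the other. The whole list of chemokines summed to 13662 and 8272 CPM in mature against 757 and 532 in cross-presenting cells. Ccl5 alone made up 11611 and 6247 of the CPM in mature cells. Of 6 tested chemokine receptors, Ccr7 and Ccrl2 were past it on the mature side and Xcr1 on the other, and the rule itself fixed Ccr7 and Xcr1. Ccl22, a ligand of Ccr4 on regulatory T cells, stood at 750 and 572 CPM in mature cells against 0 and 8.06, from 57 and 122 UMIs. Cxcl16, the ligand of Cxcr6, stood at 802 and 750 CPM against 175 and 153. Among 6 tested cytokine genes, Il12b was past the limit on the mature side and Il16 on the cross-presenting side. For all genes tested, 8.29% and 6.74% were past it on these sides. Il15ra, which presents IL-15 to neighbouring lymphocytes, stood at 250 and 178 CPM in mature cells against 5.63 and 8.06.

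The list of NF-kappaB and STAT factors was mostly higher in mature cells. Of 14 tested factors and regulators, 12 were past the limit on the mature side and 0 on the other, with medians of 2.65 and 2.59, and Rela and Nfkbie were the 2 that were not. The 12 include Stat3, Stat4 and Stat5a, which are no NF-kappaB genes, and Relb, Traf1 and Birc3 are also in the list of mature markers. Relb, the subunit of the noncanonical pathway, stood at 907 and 773 CPM against 16.9 and 40.3 in cross-presenting cells. Rel stood at 237 and 248 CPM against 28.1 and 20.2, and Nfkbia, the inhibitor that NF-kappaB itself induces, at 552 and 834 against 160 and 161. Traf1, a signalling adaptor, stood at 1709 and 1031 CPM against 98.5 and 141.

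The stretches upstream of Rel and Nfkbia are shown because both genes belong to that list and both hold a kappaB motif. They end 1 base before the start site and are from RefSeq on GRCm38.p6, written 5′ to 3′ on the strand of the gene with kappaB matches in capitals.
Rel (chr11:23770970-23771069, minus strand): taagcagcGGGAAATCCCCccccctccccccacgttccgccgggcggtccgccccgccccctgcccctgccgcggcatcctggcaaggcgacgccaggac
Nfkbia (chr12:55492648-55492747, minus strand): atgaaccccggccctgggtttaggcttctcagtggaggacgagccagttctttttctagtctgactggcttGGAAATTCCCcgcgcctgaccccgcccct
The nearest match ends 81 bases before the start of Rel and 19 bases before that of Nfkbia. The motif, searched on both strands in 250 bases upstream, was present for 7 of 13 genes of the NF-kappaB and STAT list with a promoter sequence, against 2225 of all 27025 genes (8.23%) and 10.7% of the tested genes. It was present for 49 of 299 genes past the limit on the mature side (16.4%), for 20 of 235 on the cross-presenting side (8.51%), and for 0 of 23 mature markers. A match is a stretch of letters and not evidence of binding, and Ccr7, Ccl5, Cd40, Cd83 and Relb had no entry in the table of promoters.

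Most tested genes of the cytoskeleton and of survival were higher in mature cells. Of 14 tested migration and cytoskeleton genes, 9 were past the limit on the mature side and 1, Tmsb10, on the other. Marcksl1, an actin regulator, stood at 1670 and 2039 CPM against 53.5 and 40.3. Of 9 tested survival genes, 6 were past the limit on the mature side and 0 on the other, among them Bcl2a1b at 2170 and 2404 CPM against 194 and 153 and Birc2 at 473 and 441 against 14.1 and 8.06. Of 20 tested cell cycle genes, 0 were past the limit on the mature side and 7 on the cross-presenting side. In 3 of 18 and 3 of 15 cross-presenting cells the cell cycle list reached 100 UMIs, and in 0 of 36 mature cells, which were shallower. The median cell did not show this difference, with 18.7 and 18.8 UMIs of the list per 10000 in cross-presenting cells and 16.1 and 21.9 in mature cells.

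**Figure D3:**
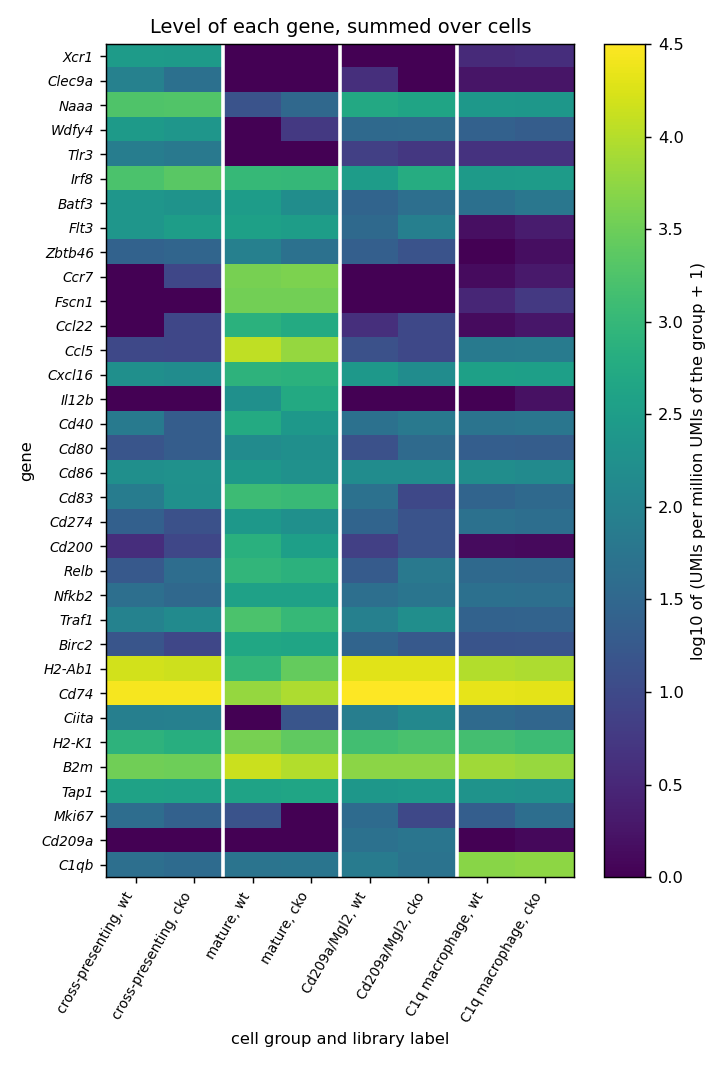
Heat map of log10(CPM + 1) for 34 genes in rows and 4 cell groups (cross-presenting, mature, CD209a and MGL2 dendritic cells, and C1q macrophages) in each library in columns. Columns of the same cell group look alike in both libraries, with Relb, Cd83 and Ccr7 high in mature cells and H2-Ab1 and Cd74 low there.

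The mature cells were not uniform. Ccl5 ranged from 1 to 193 UMIs (median 84) in the 11 cells labelled wt and from 0 to 230 (median 30) in the 25 labelled cko. Cells with under 10 UMIs of Ccl5 numbered 3 and 11, and cells with 10 or more numbered 8 and 14. In the library labelled cko, the median of Cd74 was 119 UMIs in the cells low in Ccl5 and 26 in the others, while in the library labelled wt the medians were 25 and 45.5. The 2 libraries therefore went in opposite directions, with 3 cells on one side of the comparison in the library labelled wt. The pair of cells with few mature markers had 0 UMIs of Ccl5 and 11 and 5 of Cd74, and so lies on the low side labelled cko. Cells with at least 100 UMIs of Cd74 were 1 of 11 in the library labelled wt and 11 of 25 in the library labelled cko.

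Il12b, the subunit shared by IL-12 and IL-23 (ENSMUSG00000004296, chr11:44400063-44414033, plus strand), was found in a part of the mature cells and in no cross-presenting cell. In the library labelled wt it had 14 UMIs in 5 of 11 mature cells, with 8, 2, 2, 1 and 1 UMIs. In the library labelled cko it had 117 UMIs in 9 of 25, with 42, 28, 20, 12, 10, 2, 1, 1 and 1. The level was 184 and 548 CPM, and the log2 ratio of cko over wt was 1.57 (0.77 to 2.49), and 2.09 with the cell of the most UMIs left out of each library. The share of cells with a UMI was 45.5% and 36.0%, and 27.3% and 36.0% at 3000 UMIs per cell, shares whose intervals overlapped. Cells with 10 or more UMIs were 0 of 11 (0 to 28.5%) and 5 of 25, or 20% (6.83 to 40.7).

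Background of this gene was near 0 in other cells of these libraries. It had a UMI in 0 of 834 and 4 of 1016 C1q macrophages (0.394%), which had a median depth of 11228 and 10801 UMIs, and in 0 monocytes and 0 T cells. The cells with 42 and 28 UMIs of Il12b held 42 and 38 UMIs of Irf8 among 10302 and 20435 in all, the highest counts of Irf8 in mature cells, although per UMI of the cell the second lay below several others. Il12a, which encodes the partner subunit of IL-12, had 0 UMIs in all 69 cells.

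**Figure D4:**
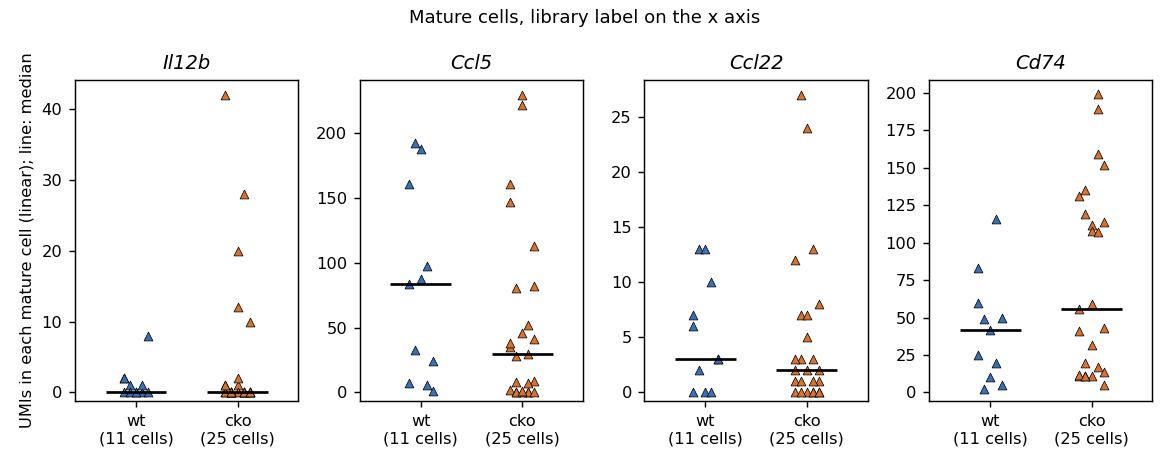
UMIs of Il12b, Ccl5, Ccl22 and Cd74 in each mature cell, by library, on linear axes with a line at the median. Il12b is at or near 0 in most cells and reaches 8 UMIs in the library labelled wt and 42 in the library labelled cko, and Ccl5 spans 0 to 230.

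In cross-presenting cells, few genes separated the library labelled cko from the library labelled wt. Of 3479 genes tested, 55 (1.58%) were at least 2-fold higher in the library labelled cko with an interval above 1-fold, and 89 (2.56%) were lower. None of 19 tested cross-presenting markers other than Xcr1 and Clec9a was past the limit, with a median log2 ratio of −0.17. Nor was any of 16 class I and 11 class II genes. Of 8 tested uptake and pattern receptor genes, 1 was past it on the higher side and 3, Clec9a among them, on the lower. Xcr1 had a log2 ratio of −0.07 and Clec9a of −1.07, past the limit on the lower side. Without the cell labelled wt with few cross-presenting markers, Clec9a stood at −1.03 (−2.17 to 0.004) and was not past it. As the rule used both genes, these values are a description. The genes that met the naming rule on the higher side were Pmaip1, Ifngr1, Jun, Il1r2, Pts and Mt1, of which Pts went from 1.40 to 0.65 (−0.28 to 1.59) without its top cells, and on the lower side Oasl1, Cxcl9, Usp18, Rsad2, Isg15 and Ifi47.

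Genes induced by interferon were lower in the library labelled cko in cross-presenting cells, in their sums. Of 16 tested genes of the interferon list, 11 were past the limit on the lower side and 1, Ifi44, on the higher side, with a median log2 ratio of −2.13 against −0.02 for all genes tested. Isg15, a ubiquitin-like modifier, stood at 402 and 101 CPM with a ratio of −2.00 (−2.67 to −1.38). Usp18, which removes that modifier, stood at 183 and 28.2 CPM with a ratio of −2.70 (−4.07 to −1.57). Cxcl9, a ligand of Cxcr3 on T cells (ENSMUSG00000029417, chr5:92321347-92328079, minus strand), stood at 251 and 40.3 CPM, and 66 of its 89 UMIs labelled wt lay in 1 cell. Irf7 had a ratio of −1.34 (−1.87 to −0.84), while Irf1 had 0.32 (−0.48 to 1.11).

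A few cells held most of these transcripts. The interferon list reached 352, 196 and 120 UMIs in 3 of the 18 cross-presenting cells labelled wt and at most 86 in the other 15, and at most 55 in the 15 labelled cko. Per 10000 UMIs the medians were close, 6.20 in the library labelled wt and 6.89 in the library labelled cko, and the highest cells were at 246 and 33.0. The difference thus lay in the top of the distribution and not in the typical cell. With each gene's top cell of either library left out, Isg15 had a ratio of −2.67 and Usp18 −3.07, while Ifit3 went from −3.48 to a bound of −0.97, under 2-fold, and Cxcl10 from −3.36 to −1.44 (−4.71 to 0.88), and neither was then past the limit.

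The stretches before the start of 4 of these genes are shown because they carry the interferon-stimulated response element. They are from RefSeq on GRCm38.p6 and end 1 base before the start site, written 5′ to 3′ on the strand of the gene, with matches to GAAA, any 2 bases and GAAA on either strand in capitals.
Isg15 (chr4:156200819-156200978, minus strand): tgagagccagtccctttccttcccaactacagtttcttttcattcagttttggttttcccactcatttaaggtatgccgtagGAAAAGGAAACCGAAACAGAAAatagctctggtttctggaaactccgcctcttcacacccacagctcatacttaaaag
Ifit1 (chr19:34640729-34640888, plus strand): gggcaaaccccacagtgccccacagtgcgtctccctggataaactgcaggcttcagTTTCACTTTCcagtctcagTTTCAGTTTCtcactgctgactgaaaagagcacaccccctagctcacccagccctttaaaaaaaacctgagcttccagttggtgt
Ifit3 (chr19:34583369-34583528, plus strand): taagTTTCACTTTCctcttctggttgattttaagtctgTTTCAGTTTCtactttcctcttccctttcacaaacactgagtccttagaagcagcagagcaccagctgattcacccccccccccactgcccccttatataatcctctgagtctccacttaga
Rsad2 (chr12:26456453-26456612, minus strand): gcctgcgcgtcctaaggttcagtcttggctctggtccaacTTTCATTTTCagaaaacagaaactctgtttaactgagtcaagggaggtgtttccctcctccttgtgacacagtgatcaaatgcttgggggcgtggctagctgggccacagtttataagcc
The nearest match ends 56, 75, 112 and 110 bases before the start, in that order, and Isg15 holds 3 overlapping matches. In the 250 bases upstream, 9 of 16 genes of the interferon list with a sequence held a match, against 936 of all 27025 genes (3.46%) and 4.09% of the genes tested between the groups. Of the genes past the limit on the lower side in cross-presenting cells, 11 of 69 with a sequence held one (15.9%). These letters alone show no binding.

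The mature cells did not follow that pattern. Of 12 tested interferon genes, 3 were past the limit on the higher side in the library labelled cko (Ifit3, Ifi47 and Cxcl10) and 0 on the lower side, with a median log2 ratio of 0.56 against 0.11 for all genes. Of all 1891 genes tested in mature cells, 7.67% were higher and 3.49% lower. Of the UMIs labelled cko, 1 cell held 28 of 30 for Ifit3 and 26 of 33 for Cxcl10, which went from 2.56 to 1.22 (−1.74 to 6.72) without its top cells and was then not past the limit. Isg15 stood at 1039 CPM in the library labelled wt and 895 in the library labelled cko, a ratio of −0.21 (−0.60 to 0.18). The list reached 100 UMIs in 0 of 11 mature cells labelled wt and in 1 of 25 labelled cko, which held 269. Medians per 10000 UMIs were 19.6 and 17.6. The summed list stood at 2592 and 939 CPM in cross-presenting cells, 2604 and 3407 in mature cells, 2401 and 1433 in CD209a and MGL2 dendritic cells and 2895 and 2456 in C1q macrophages.

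**Figure D5:**
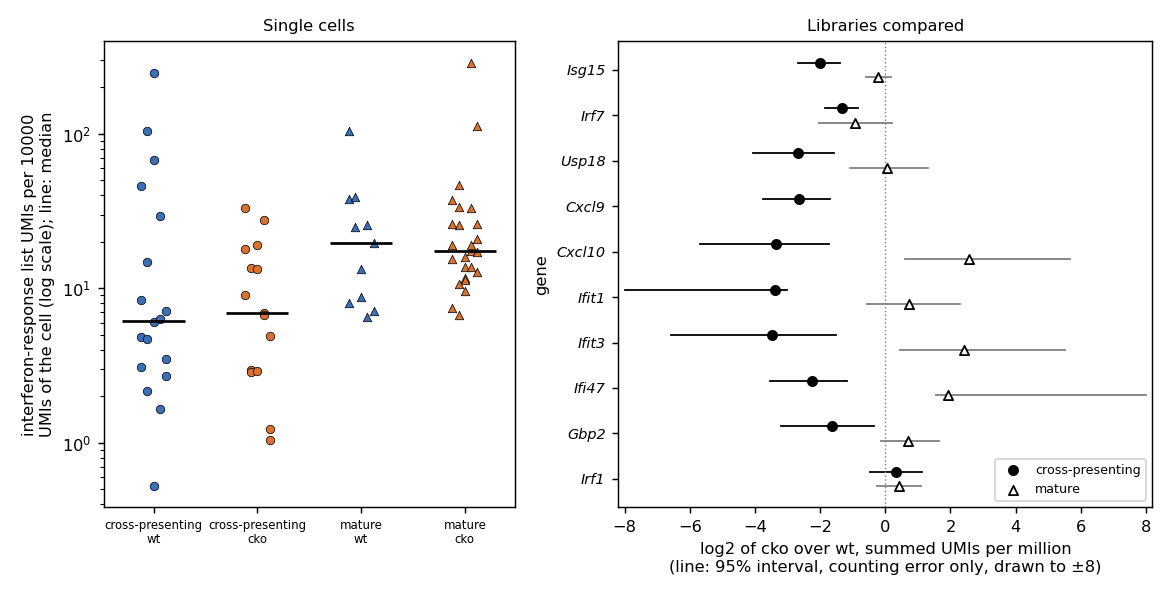
Left, UMIs per 10000 of the interferon list in each cell, by group and library, on a log axis. Right, log2 ratios of cko over wt with exact 95% intervals for 10 genes, filled circles for cross-presenting and open triangles for mature cells, with points at the bound where a library had 0 UMIs. Most circles lie left of 0, and 3 of the triangles lie right of it with intervals that exclude it.

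Other differences between the libraries in cross-presenting cells touched single genes. Ifngr1, a chain of the interferon gamma receptor, stood at 504 CPM in the library labelled cko against 219.5 in the library labelled wt, a log2 ratio of 1.20 (0.78 to 1.63), with a UMI in 15 cells of each. Pmaip1, which encodes the apoptosis factor Noxa, stood at 105 against 14.1 CPM, with a ratio of 2.90 (1.49 to 4.63) from 5 and 2 cells. Cd40 (ENSMUSG00000017652, chr2:165055627-165072948, plus strand) had a ratio of −1.80 (−3.55 to −0.39), from 5 UMIs labelled cko and 25 labelled wt. The 3 cells labelled wt highest in the interferon list held 8, 3 and 2 of those 25. Cd83 had 1.22 (0.50 to 1.97), and Tgfb1 had −1.09 (−1.95 to −0.30). Of 10 tested immediate-early and heat shock genes, 3 were past the limit on the higher side (Jun at 1.33, Fos at 1.06 and Nr4a1 at 2.10) and 0 on the lower, against 1.58% and 2.56% of all genes tested. Without the top cells, Fos stood at 0.91 and Nr4a1 at 1.81 (−0.03 to 3.96), and neither was then past the limit.

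In mature cells a larger share of genes differed between the libraries, on fewer UMIs. Of 1891 genes tested, 145 (7.67%) were at least 2-fold higher in the library labelled cko and 66 (3.49%) lower. The sums held 76048 UMIs labelled wt and 213382 labelled cko. Without the pair of cells with few mature markers, an alternative chosen after seeing the data, 76 genes were higher. The genes that met the naming rule on the higher side were Igfbp4, S100a6, Vim, Ifi47, Lgals1 and Chil3, in part from few cells. Igfbp4, a binding protein of insulin-like growth factors, stood at 0 and 544 CPM, from 5 cells labelled cko, 1 of which held 96 of 116 UMIs, and its log2 ratio, with the 0 taken at the floor of 3 counts, was 3.78 (lower limit 3.46), and 1.51 (lower limit 1.08) without the pair. For S100a6, whose ratio went from 3.81 to 1.72 without the pair, 1 cell held 429 of the 589 UMIs labelled cko, and for Chil3 1 cell held 23 of 28. Vim went from 2.59 to 0.78 and Lgals1 from 2.01 to 0.58 without the pair of cells, and neither was then past the limit.

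Genes lower in mature cells labelled cko were Tnfrsf9, Actb, Ndrg1, Dnajb2, Acadm and Auh. Actb, the main cytoplasmic actin, stood at 40317 CPM in the library labelled wt and 17190 in the library labelled cko, a log2 ratio of −1.23 (−1.30 to −1.16) with UMIs in all 11 and all 25 cells, and −1.02 without the pair of cells. Tnfrsf9, which encodes the costimulatory receptor 4-1BB, stood at 671 and 150 CPM, a ratio of −2.16 (−2.85 to −1.50). Of 25 tested mature markers, 0 were past the limit on the higher side and 3 on the lower side, with a median of −0.38. For all genes tested in mature cells, 7.67% were higher and 3.49% lower, with a median of 0.11. Ccl5 stood at −0.89 (−1.02 to −0.77), and −0.63 without the pair of cells. Cd40 had −1.13 (−1.73 to −0.51) and Cd200 −1.08 (−1.60 to −0.55), and neither stayed past the limit without the pair, at −0.86 and −0.81.

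Of 8 tested class II genes in mature cells, 2 were past the limit on the higher side in the library labelled cko and 0 on the lower, with a median of 0.42 against 0.11 for all genes. H2-Ab1 had a log2 ratio of 1.49 (1.14 to 1.87), and 1.74 without the pair of cells, yet its median was 3 UMIs per cell labelled wt and 4 labelled cko, with highest cells of 43 and 120. H2-DMb2 had 1.32 (0.08 to 2.84), and Cd74 had 0.53 (0.38 to 0.68). Of 12 tested lysosome and protease genes, 3 were higher, namely Ctsb, Ctsl and Lamp2, against 7.67% of all genes tested, with 33 of the 36 Ctsl UMIs in 1 cell. Ccr7 and Fscn1 stood at 0.12 and −0.02, and at 0.37 and 0.23 without the pair of cells.

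Lyz2, the locus that carries LysMCre, was low in both groups. It stood at 1272 and 1375 CPM in cross-presenting cells and 473 and 694 in mature cells, against 16326 and 7292 in C1q macrophages and 1850 and 1012 in T cells, which do not make lysozyme. At 3000 UMIs per cell it was found in 83.3% and 66.7% of cross-presenting, 72.7% and 56.0% of mature and 79.2% and 57.7% of T cells, whose median depths before thinning were 5855 and 7063.5 UMIs. The shares in these dendritic cells lay near those of T cells, and single cells held 110 and 207 UMIs in the cross-presenting group and 98 in the mature group. Without the top cell of each library the log2 ratio of cko over wt was −0.79 in both groups, and without the pair of cells with few markers it was −0.97 in mature cells, from 0.55 with all cells. In the C1q macrophages of these libraries Lyz2 was lower in the library labelled cko as well.

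The microRNA that the design targets is shown with its seed, bases 2 to 8, in capitals. The mature sequence, from RefSeq, lies at chr11:86584120-86584141 of GRCm38.p6 on the minus strand.
mmu-miR-21a-5p: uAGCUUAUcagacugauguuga
Its primary transcript was not analysed here, and polyadenylated 3′ counts do not measure the mature form. Of 15 genes listed as targets from general knowledge, 5 were tested in cross-presenting cells and 4 in mature cells. In cross-presenting cells 0 of 5 were past the limit between the libraries, where 1.58% of all genes tested were higher and 2.56% lower. In mature cells 1 was past the limit on the higher side, Tgfbi at 2.17 (0.52 to 4.51), which stood at 0.92 without its top cells, and Tpm1 was at −0.31 (−1.22 to 0.67). Of all genes tested in mature cells, 7.67% were higher.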

How the data were processed

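CD45+ cells from LLC tumors were profiled by droplet sequencing (10x Genomics 3′), with 1 library of 3 pooled mice per genotype. The authors deposited raw UMI counts of cells they had already called, for 27998 genes. The submitters' processing notes name Cell Ranger, Seurat and mm10, with no version or role. The counting step reads the 3′ end of transcripts, so isoforms and strand partners were not resolved. Libraries held 24492486 and 27163485 UMIs. Groups of cells followed the rule given above, and the cells and all 27 gene lists were chosen with earlier results of these data known. UMIs were summed per group and library, scaled to CPM, and compared as log2 ratios with exact conditional binomial 95% intervals, for genes with at least 20 UMIs. With 1 library per genotype, no test across genes was run. A gene was past the limit at 2-fold with an interval that excluded 1-fold, in both libraries for the contrast of the groups. Where one side held 0 UMIs, a floor of 3 counts over the group was used, and the ratio is then a bound. Shares have exact Clopper-Pearson intervals. Besides every gene of the lists, the text names 10 genes per direction between groups and up to 6 per direction between libraries, the latter seen in at least 5 cells. They were ranked by the interval bound nearest to 0, the largest first, taken from the weaker library between groups. Ribosomal, mitochondrial and Gm-numbered genes were passed over. Genes chosen after their values were seen are those of the closing section. Of the listed genes, 2 were not analysed here. Doublets were not removed, and removal by Scrublet score was an alternative. Scripts used Python 3.11.15, numpy 2.4.6, scipy 1.17.1, pandas 2.3.3, scanpy 1.11.5 and matplotlib 3.10.9, and were tested on simulated data.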

Additional observations from a re-analysis of the deposited data

Results flagged for a closer look

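Of 1633 genes tested between the libraries in both groups of dendritic cells, 7 were past the 2-fold limit in opposite directions and 4 in the same direction. The difference between the groups was not tested for any of them, and the 7 were picked for their values. The values below are the log2 ratio of cko over wt in mature cells less that in cross-presenting cells. Cxcl10, a chemokine induced by interferon, had a difference of 5.91, from 2.56 in mature and −3.36 in cross-presenting cells, which went to 1.22 and −1.44 without the cells with the most UMIs, neither then past the limit. Ifit3 had 5.90, with 28 of 30 UMIs of the mature cells labelled cko and 23 of 32 of the cross-presenting cells labelled wt in 1 cell each. Ifit1bl1 had 6.28, with 24 of 24 and 25 of 26 such UMIs in 1 cell each. Ifi47, an interferon-induced GTPase, had 4.19, of which the mature value of 1.93 is a bound, since it had 0 UMIs in mature cells labelled wt.

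Pla2g7, a phospholipase, had a difference of 5.12, from 3.16 and −1.97, and 1.14 and −1.99 without those cells. Eva1b had 3.72, from 2.35 and −1.37, and 2.49 and −1.60 without them. Acadm, an enzyme of fatty acid oxidation, had −3.14, from −1.62 and 1.52, and −1.19 and 1.75 without them.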

How the results depend on the processing

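The 3 share ratios stayed within their wide counting intervals under every alternative run, but with the rule applied to cells thinned to 3000 UMIs the cross-presenting ratio went from 0.754 to 0.362 and the ratio of mature per cross-presenting cell from 2.73 to 4.77. Lyz2, which was not past the limit, turned from higher to lower without its top cells, and Chil3 in mature cells, left with 5 UMIs against 0, then had too few UMIs to give a direction. Among values that answer a comparison, 89 stayed within the interval or within 1.5 times and 17 counts moved by over 1.5 times. Among single genes and shares of cells, 150 stayed close, 16 were no longer past the limit and 11 moved. The moved counts of genes higher in mature cells labelled cko were 93 with stricter UMI limits, 74 with the rule applied to cells thinned to 3000 UMIs, 76 without the 3 cells with few markers (added after seeing the data) and 54 with at least 50 UMIs. Genes lower there were 24 with at least 50 UMIs, 122 with no minimum and 34 when each gene's top cell was left out. In cross-presenting cells, genes higher in the library labelled cko were 33 with the thinned rule, 11 with at least 50 UMIs and 122 with no minimum, and genes lower were 26 and 27 with the first 2 of these. Between the groups, the thinned rule gave 120 genes higher in mature and 163 in cross-presenting cells. The library labelled wt alone gave 556 genes higher in cross-presenting cells, and the library labelled cko alone 610 higher in mature and 685 in cross-presenting cells. Fewer cells, fewer UMIs or 1 library in place of both are part of these settings, and otherwise the cause was not tested. Scaling by the median of gene ratios lowered log2 ratios of cko over wt by 0.02 in cross-presenting cells and raised them by 0.08 in mature cells, and Cd200 in mature cells was then just inside 2-fold. No library could be left out in turn, as each genotype had 1. No paired analysis was possible because each genotype had 1 library and no test was run. At 11 to 25 cells per group and library, a difference in share under about the width of the intervals given was not detectable.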

Other observations

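Of 14 tested lysosome and protease genes, Lgmn and Lamp1 were past the 2-fold limit on the mature side and Psap, Ppt1 and Naaa on the cross-presenting side, against 8.29% and 6.74% of all genes tested. Lgmn, an asparaginyl protease, stood at 920 and 787 CPM in mature cells of the libraries labelled wt and cko against 107 and 113 in cross-presenting cells. Psap, the precursor of the saposins, stood at 684 and 923 CPM against 5604 and 5197. Cst3, which encodes cystatin C and is abundant in dendritic cells, stood at 32230 and 21314 CPM in mature and 29109 and 25979 in cross-presenting cells, against 2148 and 2166 in C1q macrophages. Stat4, which transmits the signal of the IL-12 receptor, stood at 684 and 356 CPM in mature cells against 5.63 and 32.3.

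Some secreted factors were seen in few mature cells. Mfge8, a bridge for the uptake of dying cells, stood at 434 CPM in the library labelled wt and 103 in the library labelled cko, with UMIs in 2 of 11 and 7 of 25 cells and highest cells of 22 and 7 UMIs, while the Langerhans cell gene Cd207 was at 0. Ccl17 had 14 UMIs in the library labelled wt, 12 of them in 1 cell, and 1 in the library labelled cko. Ccl7 had 20 UMIs in the library labelled cko, 19 of them in 1 cell. Ebi3, a subunit of IL-27, stood at 145 and 18.7 CPM.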
